A study of Mus musculus with 12 samples.

Results

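Among 12 mouse liver arrays, the 6 labelled uninduced hepatocyte or wild-type organoid did not group by their labels, and they are described here by their expression profile. The groups were selected on measured values: libraries with Lyz2 above 9 on the log2 intensity scale were set against those below 9. The 3 Lyz2-high libraries carry the labels hepatocyte 2, wild-type organoid 1 and wild-type organoid 3. The 3 Lyz2-low libraries carry the labels hepatocyte 1, hepatocyte 3 and wild-type organoid 2. Each profile therefore held libraries of both labels, and every value that compares the profiles is given as a description with no test.

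All 12 libraries came from C57Bl6 mice. The hepatocyte label stands for liver cells sorted by flow cytometry, positive for yellow fluorescent protein (YFP) and named uninduced. Wild-type organoids were cultured cells grown for 2 weeks. The remaining libraries were Yap-on organoids, titled Plus Dox, in which Yap was on for 3 weeks in the animal and for 2 weeks in culture, and Yap-off organoids, titled Minus Dox, in which it was on for 3 weeks in the animal and off for 2 weeks in culture. The sources used here give neither age, nor the promoter or allele behind Yap and the YFP mark, nor whether replicates came from separate animals. The p-values thus measure only the spread between libraries. RNA was amplified before it was hybridised to Affymetrix mouse gene arrays. After rows were assigned to genes, 19937 genes were measured, with a median log2 level between 4.14 and 4.34 in the 12 libraries and no identical arrays.

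Liver tissue holds hepatocytes, which make plasma proteins and detoxifying enzymes, together with bile duct epithelium, sinusoidal endothelium and Kupffer cells, the resident macrophages that clear particles from the blood. Kupffer cells carry lectins, scavenger receptors and complement receptors, whereas duct cells are recognised by keratins and by the transcription factor Sox9. YAP is a transcriptional co-activator that is restrained by the Hippo kinases. In the nucleus it binds TEAD factors and turns on genes such as Ankrd1, Ccn1 and Ccn2, and in mouse liver its activation is known to give hepatocytes ductal features.

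The 4 genes given as markers separated the same libraries. Lyz2, the lysozyme of macrophages and neutrophils, chose the groups. Its log2 level was 12.04 in hepatocyte 2, 11.56 in wild-type organoid 1 and 12.16 in wild-type organoid 3, against 5.28 in hepatocyte 1, 6.30 in hepatocyte 3 and 6.19 in wild-type organoid 2. The libraries nearest the threshold of 9 were thus at 11.56 above it and at 6.30 below it. Cyp2e1, a cytochrome P450 of hepatocytes around the central vein, had 10.14, 10.03 and 9.90 in the Lyz2-high libraries, against 3.16, 3.22 and 2.74 in the Lyz2-low libraries. Krt19, a keratin of duct epithelium, went the other way, with 4.95, 4.28 and 4.92 in the Lyz2-high libraries and 10.21, 9.82 and 9.28 in the Lyz2-low libraries. Ankrd1, a target of YAP, had 3.46, 3.39 and 3.47 in the Lyz2-high libraries, against 10.40, 10.07 and 10.19 in the Lyz2-low libraries. The groups did not overlap in any of the 4 genes, and splitting the libraries by Cyp2e1, Krt19 or Ankrd1 gave the same groups as Lyz2. Cyp2e1, Krt19 and Ankrd1 were given as markers together with the grouping, with earlier results of these data known. Their agreement with Lyz2 is therefore part of how the groups were chosen and no separate check. In bulk samples such as these, fewer cells of a type and less RNA per cell cannot be told apart.

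**Figure D1:**
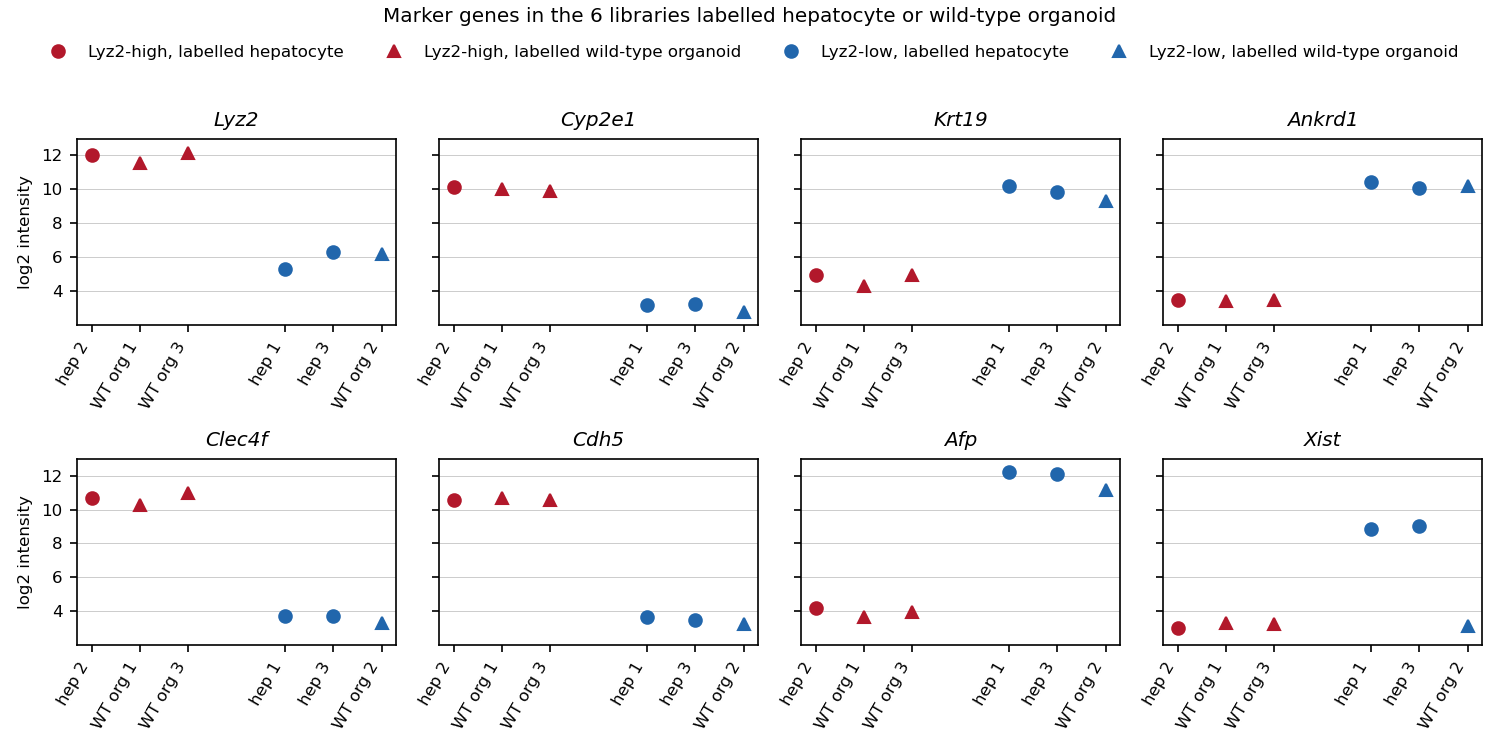
Log2 intensity of 8 genes in each of the 6 libraries, with Lyz2-high libraries in red at the left of each panel and Lyz2-low libraries in blue at the right; circles carry the hepatocyte label (hep) and triangles the organoid label (WT org). Lyz2, Cyp2e1, Clec4f and Cdh5 were high in hepatocyte 2 and wild-type organoid 1 and 3, Krt19, Ankrd1 and Afp in the other libraries, and Xist was high in hepatocyte 1 and 3 only.

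The stretches of 250 bases before the annotated start of 3 of these markers are shown because the markers define the contrast, and that of Ccn1, a further YAP target, is shown beside Ankrd1. They are RefSeq sequences of build GRCm38.p6, written 5′ to 3′ on the strand of the gene. The Lyz2 stretch is chr10:117282273-117282522 on the minus strand, that of Cyp2e1 is chr7:140763569-140763818 on the plus strand, that of Ankrd1 is chr19:36119845-36120094 on the minus strand and that of Ccn1 is chr3:145649986-145650235 on the minus strand. Capitals mark the TEAD motif GGAATG or its reverse complement CATTCC.
Lyz2: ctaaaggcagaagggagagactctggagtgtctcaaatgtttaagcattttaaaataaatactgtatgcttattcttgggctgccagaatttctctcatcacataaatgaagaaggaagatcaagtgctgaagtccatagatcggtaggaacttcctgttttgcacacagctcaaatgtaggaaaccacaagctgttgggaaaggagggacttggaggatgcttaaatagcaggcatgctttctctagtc
Cyp2e1: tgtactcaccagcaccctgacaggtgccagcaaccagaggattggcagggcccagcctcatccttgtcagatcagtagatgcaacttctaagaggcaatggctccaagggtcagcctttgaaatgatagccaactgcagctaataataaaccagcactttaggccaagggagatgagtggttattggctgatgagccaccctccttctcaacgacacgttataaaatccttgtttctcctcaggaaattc
Ankrd1: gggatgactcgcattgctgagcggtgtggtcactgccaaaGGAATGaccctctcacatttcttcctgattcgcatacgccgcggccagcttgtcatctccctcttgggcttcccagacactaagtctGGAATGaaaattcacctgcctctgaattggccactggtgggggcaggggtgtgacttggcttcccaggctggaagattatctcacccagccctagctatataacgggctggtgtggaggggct
Ccn1: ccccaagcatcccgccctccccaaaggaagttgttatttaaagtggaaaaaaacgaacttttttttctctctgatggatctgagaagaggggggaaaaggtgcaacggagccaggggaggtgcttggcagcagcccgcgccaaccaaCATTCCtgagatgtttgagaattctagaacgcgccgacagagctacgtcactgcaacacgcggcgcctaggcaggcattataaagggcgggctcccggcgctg
The Ankrd1 stretch held 2 TEAD motifs, at bases 210 to 205 and 123 to 118 before the start, and the Ccn1 stretch held 1 on the other strand, at bases 103 to 98. The Lyz2 and Cyp2e1 stretches held none of the 5 motifs searched. These were, on both strands, GAGGAA for PU.1, GGAATG for TEAD, TGANTCA for AP-1, TTGCNNCAA for C/EBP and CAAAGTCCA for HNF4A. The PU.1 and TEAD motifs can overlap in their shared letters GGAA.

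Across all genes the profiles were far apart. A gene is called apart here where every library of one profile was at least 2-fold above every library of the other. By this measure 806 genes (4.04% of 19937) were higher and 843 (4.23%) were lower in the Lyz2-high libraries. The gap was at least 4-fold for 446 of the higher and 268 of the lower genes, and at least 16-fold for 150 and 36. Of the higher genes, 466 (57.8%) lay below the array median in every Lyz2-low library, while 201 (23.8%) of the lower genes lay below it in every Lyz2-high library. At the 2-fold limit stood Calml4, with a gap of 1.001 (log2), and Gtse1, with 1.002, just inside, and Nin, with 1.000 after rounding, and Clcn2, with 0.998, just outside. Pearson's r over 19937 genes, which share the amplification and normalization of all arrays, ranged between 0.936 and 0.970 among Lyz2-high libraries, between 0.953 and 0.989 among Lyz2-low libraries, and between 0.800 and 0.826 across the profiles.

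**Figure D2:**
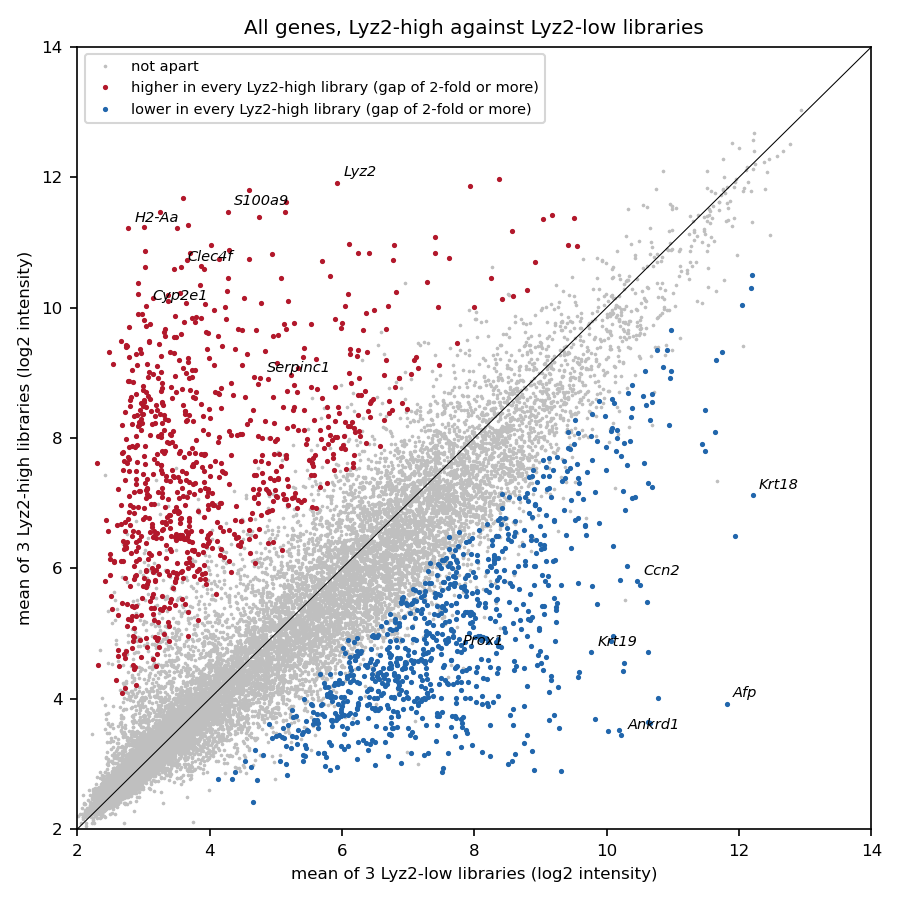
Each point is a gene, placed by its mean log2 intensity in the 3 Lyz2-low libraries (horizontal) and in the 3 Lyz2-high libraries (vertical), with the diagonal marking equal levels. The 806 genes higher in every Lyz2-high library are red, the 843 lower in every Lyz2-high library are blue, and genes that are not apart are grey.

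Macrophage genes were the clearest group on the Lyz2-high side. Of 29 measured macrophage and Kupffer cell markers, 27 (93.1%) were apart and higher, against 4.04% of all genes, and none was apart and lower. The median difference of the list was 6.34 (log2), against -0.01 over all genes. Lyz2, which chose the groups and was apart by that choice, is counted among the 27. Cd14 and Cx3cr1 were the markers that were not apart, with differences of 2.24 and 1.14. Clec4f, a lectin of Kupffer cells, had 10.65, 10.24 and 10.97 in the Lyz2-high libraries, against 3.70, 3.70 and 3.31 in the Lyz2-low libraries. Vsig4, a complement receptor of the same cells, had 11.75, 10.97 and 11.67, against 3.37, 3.35 and 3.03 in the Lyz2-low libraries. In neither gene did the groups overlap, and the differences were 7.05 and 8.22. Cd5l, a secreted protein of tissue macrophages, differed by 7.85, Adgre1, an adhesion receptor of macrophages, by 7.29, the mannose receptor Mrc1 by 7.61, and the complement genes C1qb and C1qc by 7.59 and 7.20. Marco, a scavenger receptor, varied within the profile, with 10.99 in hepatocyte 2, 6.62 in wild-type organoid 1 and 9.62 in wild-type organoid 3, against 3.81, 3.85 and 3.11 in the Lyz2-low libraries. Ccr2, a chemokine receptor of monocytes, was likewise uneven, at 4.29, 5.90 and 6.09 in the Lyz2-high libraries and between 2.66 and 3.04 in the Lyz2-low libraries.

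The widest gaps of all belonged to 2 genes of antigen presentation. H2-Aa, a chain of the class II antigen-presenting molecule, had 11.60, 10.91 and 11.15 in the Lyz2-high libraries, against 2.77, 3.13 and 2.42 in the Lyz2-low libraries, a difference of 8.45. The invariant chain Cd74 followed with 11.62, 11.14 and 10.94, against 2.98, 3.23 and 2.83 in the Lyz2-low libraries. Of the 14 measured members of this list, 7 (50%, against 4.04% of all genes) were apart and higher, H2-Ab1, H2-Eb1, H2-DMa, Irf8 and Clec9a among them. Several dendritic cell genes were not apart, such as Xcr1, with a difference of 0.49, and Flt3, with 0.28. Leukocyte genes outside the lists also stood among the 15 widest gaps: the surface glycoprotein Cd52 differed by 8.10, the granule proteoglycan Srgn by 7.0 and the blood cell GTPase Rac2 by 6.68. AW112010 differed by 7.72.

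Neutrophil and monocyte genes were apart and higher in 8 of 14 measured members (57.1%), against 4.04% of all genes. S100a9, a calcium-binding protein of neutrophils and monocytes, had 11.59, 11.22 and 11.61 in the Lyz2-high libraries, against 4.34, 4.90 and 3.58 in the Lyz2-low libraries, and its partner S100a8 differed by 6.65. Retnlg, a neutrophil gene, differed by 5.17 and Plac8 by 3.98. Plac8 was not particular to the Lyz2-high libraries, where it had 9.52 to 10.79, against 11.385 to 11.477 in Yap-on organoids. The primary granule genes Elane and Prtn3 were not apart, with differences of 0.55 and 0.65. Among 20 cytokine and chemokine genes 9 were apart and higher and none apart and lower, with a lowest difference of -1.57. Without overlap between the profiles, 12 were higher and 1 was lower in the Lyz2-high libraries. Ccl9, which was apart, had 10.82, 6.50 and 7.33 in the Lyz2-high libraries but also 8.64 to 9.72 in Yap-off organoids. Il1a differed by 5.50, Il1b by 5.32 and the chemokine Ccl6 by 6.77. Of 14 measured interferon response genes 9 were apart and higher, with Irf7, a transcription factor of that response, at 9.31, 7.74 and 8.46 in the Lyz2-high libraries against 3.64, 3.70 and 3.48 in the Lyz2-low libraries.

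Endothelial genes were the second large group. Of 28 measured markers of sinusoidal and vascular endothelium 21 (75%) were apart and higher, against 4.04% of all genes, and the list median differed by 4.54. Cdh5, the cadherin of endothelial junctions, had 10.56, 10.67 and 10.56 in the Lyz2-high libraries, against 3.66, 3.48 and 3.26 in the Lyz2-low libraries. Clec4g, a lectin of sinusoidal endothelium, had 9.19, 11.39 and 10.57, against 3.03, 2.86 and 2.85 in the Lyz2-low libraries. Dnase1l3, a secreted nuclease, differed by 6.83 and the receptor Gpr182 by 6.69. Vwf and Cd34, markers of larger vessels, differed by 0.46 and 0.70 and were not apart. Of 20 stellate cell and fibroblast genes only Bgn, Hgf, Dcn and Rgs5 were apart, and Col1a1, Col1a2, Pdgfrb and Des each differed by less than 0.1. Pf4, a platelet chemokine, was apart among 6 platelet genes with a difference of 4.53, and none of 7 red cell genes was apart.

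**Figure D3:**
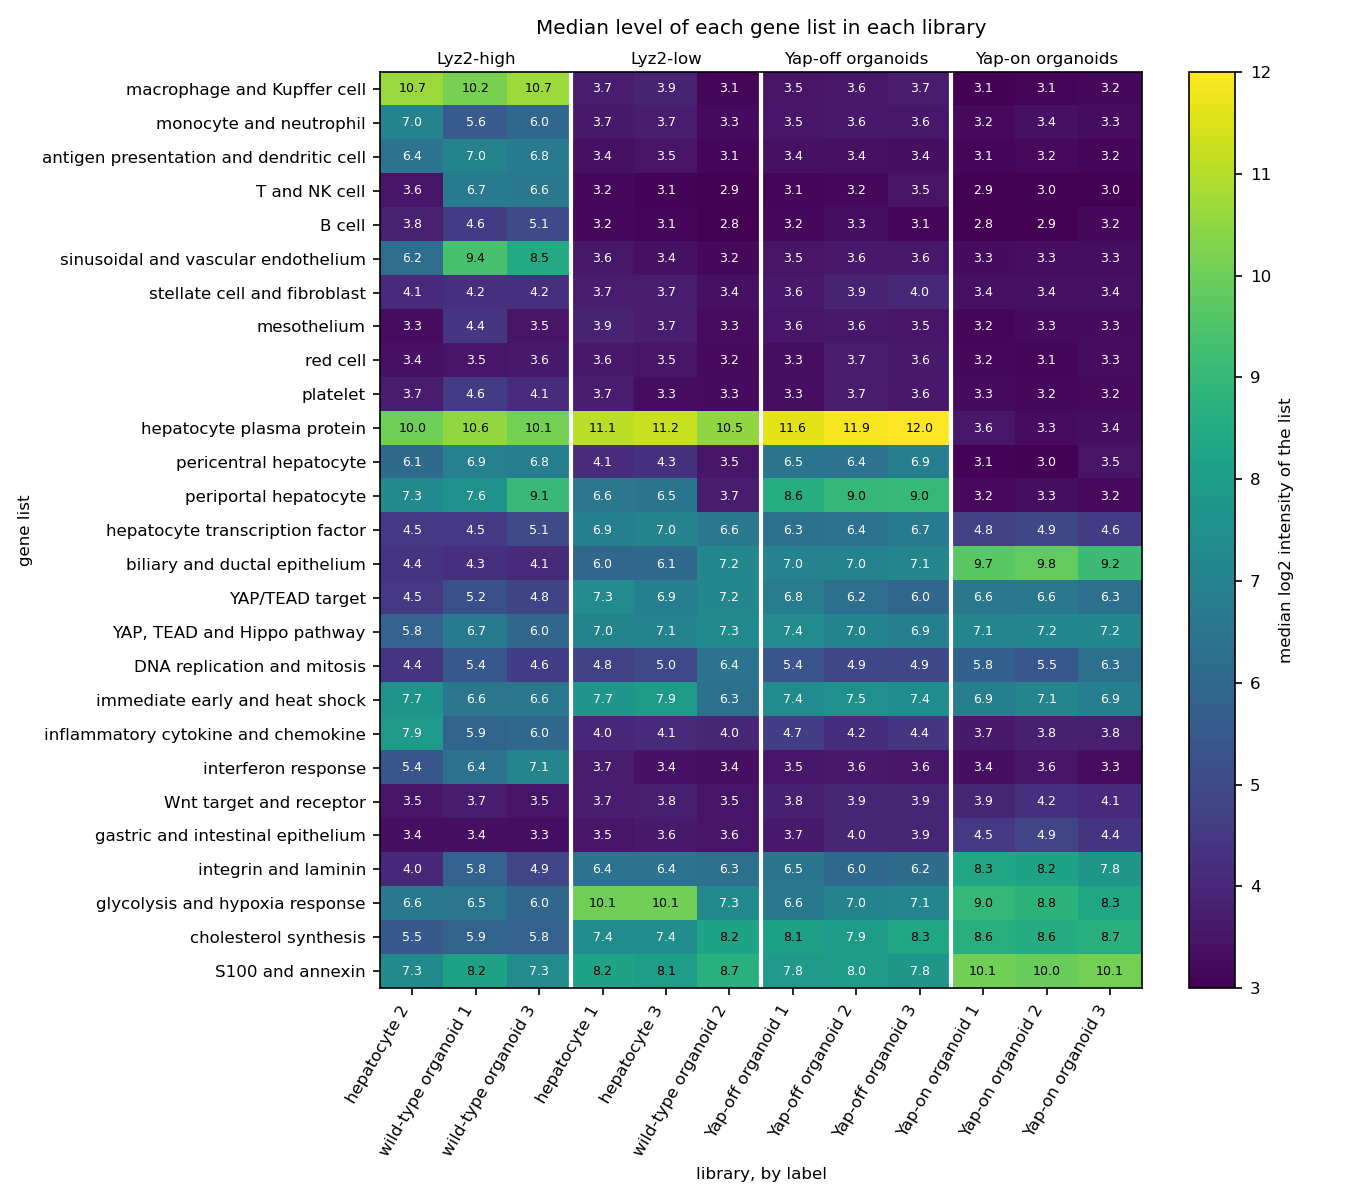
Median log2 intensity of each of 27 gene lists (rows) in each of the 12 libraries (columns), with the colour and the printed value giving the same median. Macrophage and endothelial medians were high in the Lyz2-high libraries alone, biliary, YAP/TEAD target and cholesterol synthesis medians were lower there, and the plasma protein median was near or above 10 in every library except the Yap-on organoids.

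Hepatocyte genes did not separate the profiles as a class. Among 23 plasma protein genes 2 were apart and higher, 2 apart and lower (8.7% each way), and 19 not apart, with a median difference of -0.21. Over all genes the shares were 4.04% and 4.23%. Alb, which encodes albumin, had 11.53, 12.22 and 12.01 in the Lyz2-high libraries and 12.33, 12.13 and 11.94 in the Lyz2-low libraries, so that the groups overlapped. Serpinc1, which encodes antithrombin, differed by 4.15 and Apoa2, an apolipoprotein, by 3.60. Afp, the fetal counterpart of albumin, had the widest gap on the other side. Its level was 4.17, 3.65 and 3.96 in the Lyz2-high libraries, against 12.20, 12.10 and 11.16 in the Lyz2-low libraries, a difference of -7.89.

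Some enzymes of the adult liver zones were higher in the Lyz2-high libraries. Of 14 measured pericentral genes 6 were apart and higher, with a list median difference of 0.97, and of 14 periportal genes 4, with a median of 1.69. Cyp2e1, given as a marker together with the grouping, is counted among the 6. No gene of either list was apart and lower, but the lowest difference on the periportal list was -2.72. Without overlap between the profiles, 1 periportal gene was lower and 8 were higher in the Lyz2-high libraries. Over all genes 4.04% were apart and higher and 4.23% apart and lower. Cyp3a11, a drug-metabolising enzyme, had 8.01, 8.16 and 8.15 in the Lyz2-high libraries, against 3.29, 4.05 and 2.98 in the Lyz2-low libraries. Glul, glutamine synthetase of the central vein, differed by 3.15 and Cyp1a2 by 3.73. Among periportal genes Cyp2f2 differed by 5.31 and Pck1, an enzyme of gluconeogenesis, by 4.55. Such levels were not particular to the Lyz2-high libraries. The pericentral median was 6.44 to 6.86 in Yap-off organoids and 6.10 to 6.93 in Lyz2-high libraries. The periportal median was 8.60 to 9.03 and 7.27 to 9.08 in the same order. Cyp2e1 was lower in Yap-off organoids, at 5.58, 3.89 and 4.93. Hepatocyte transcription factors lay the other way, with 5 of 15 apart and lower, namely Prox1, Foxa2, Foxa3, Nr1h4 and Onecut1. Prox1, which is needed for hepatocyte identity, had 5.21, 4.46 and 4.53 in the Lyz2-high libraries and 7.52, 7.77 and 7.91 in the Lyz2-low libraries. Cebpa, Nr0b2 and Nr1i3 had positive differences, of 1.12, 1.01 and 0.37, without reaching the 2-fold gap.

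The Lyz2-low libraries held only part of a duct profile. Of 23 measured biliary and ductal genes 12 (52.2%) were apart and lower in the Lyz2-high libraries, against 4.23% of all genes. Krt19, given as a marker together with the grouping, is counted among the 12. Krt7, a duct keratin, had 3.47, 3.70 and 3.35 in the Lyz2-high libraries, against 9.83, 9.79 and 10.46 in the Lyz2-low libraries. Krt8, Krt18, Tspan8 and Cdh1, genes of simple epithelia, differed by -5.44, -5.08, -5.71 and -4.41, and Sox9 by -3.09. Epcam, a surface marker of duct cells, was low throughout, at 3.59, 3.65 and 3.31 in the Lyz2-high libraries and 3.76, 4.13 and 4.95 in the Lyz2-low libraries. The same held for the chloride channel gene Cftr, which did not exceed 2.83 in any of the 6, and for Prom1, Elf3 and Grhl2, which did not exceed 4.50. Together with albumin and Afp at 11 or above in every Lyz2-low library, these levels go against the name duct-like for the libraries, which are therefore named here by Lyz2 alone.

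Many YAP targets and 3 of the TEAD partners of YAP were lower in the Lyz2-high libraries. Of 24 YAP/TEAD targets 11 (45.8%) were apart and lower, against 4.23% of all genes. None was apart and higher, and the median difference was -1.66. Ankrd1, given as a marker together with the grouping, is counted among the 11. Ccn2, a secreted matrix protein, had 5.73, 5.74 and 5.96 in the Lyz2-high libraries, against 10.40, 10.06 and 10.92 in the Lyz2-low libraries. Ccn1, its relative, had 7.78, 4.58 and 5.10, against 10.25, 10.41 and 9.92 in the Lyz2-low libraries, and Igfbp3 differed by -5.13. Axl and Nuak2 were among those on the other side, with differences of 1.02 and 1.27, and were not apart. The highest difference on the list was 1.83. Without overlap between the profiles, 3 of its genes were higher and 13 were lower in the Lyz2-high libraries. Tead1, a DNA-binding partner of YAP, had 3.92, 5.12 and 4.37 in the Lyz2-high libraries against 8.41, 8.73 and 9.12 in the Lyz2-low libraries, and Tead3 and Tead4 were apart as well, so that 3 of 15 measured genes of the pathway were apart. Yap1 itself had 4.92, 6.70 and 5.96 in the Lyz2-high libraries, against 7.20, 7.07 and 7.50 in the Lyz2-low libraries, a gap too small to be called apart.

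Promoter motifs are given as shares of the windows of 250 bases that had an entry, 15613 over all genes. The PU.1 letters, named for a factor of myeloid cells whose gene Spi1 differed by 5.85, occurred in 203 of 626 windows (32.4%) of the genes higher in the Lyz2-high libraries, in 135 of 669 (20.2%) of the lower genes and in 22.5% of all windows. The TEAD letters occurred in 9.42% of the higher genes, in 13.5% of the lower genes and in 11.3% of all windows. Among YAP/TEAD targets 7 of 17 windows (41.2%) held them, and 6 of the same 17 (35.3%) held the PU.1 letters. AP-1 letters occurred in 6.39% of the higher and 5.68% of the lower genes, against 6.11% of all windows. C/EBP letters occurred in 2.4% and 2.09%, against 1.6%, and HNF4A letters in 8 windows (1.28%) of the higher and none of the lower genes, against 0.397% of all windows.

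Other genes lower in the Lyz2-high libraries came from several classes. The list counts below stand against 4.23% of all genes that were apart and lower. After Afp and Ankrd1 the widest gap was that of Peg3, an imprinted gene, with 3.36, 4.18 and 3.38 in the Lyz2-high libraries against 10.53, 10.84 and 10.50 in the Lyz2-low libraries. Gpc3, an oncofetal proteoglycan, differed by -7.03, Bex1 by -6.43, the integrin subunit Itga3 by -6.66, the growth factor carrier Fgfbp1 by -6.77 and the RNA-binding protein Bicc1 by -6.13. Wfdc2, a secreted epithelial protein, differed by -5.91, the intestinal cadherin Cdh17 by -5.99, Krt20 by -5.36, the plasminogen activator Plat by -5.51, the peptidase Cpe by -5.51 and the amino acid enzyme Asns by -5.74. Cdh17 and Krt20 were the only genes of 18 on the gastric and intestinal list that were apart. Cholesterol synthesis genes were apart and lower in 7 of 16, with Sqle, which makes squalene epoxide, at 4.42, 4.98 and 4.03 in the Lyz2-high libraries against 8.45, 8.44 and 8.20 in the Lyz2-low libraries. Of 18 S100 and annexin genes 6 were apart and lower, with Anxa13 differing by -4.79 and Anxa4 by -3.44. Integrin and laminin genes were apart and lower in 4 of 19, and Wnt targets and receptors in 2 of 13, namely Lgr4 and Rnf43. The mesothelial marker Msln differed by -3.66 and was the only one of 6 that was apart. Among glycolysis and hypoxia genes 5 of 20 were apart and lower, namely Egln3, Vegfa, Tpi1, Pgk1 and Ldha. Of 27 replication and mitosis genes Rrm2, a subunit of ribonucleotide reductase, was the only one apart, with a difference of -3.49. This share of 3.7% is near that of all genes. None of 20 immediate early and heat shock genes was apart.

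Libraries of one profile were not alike. A range of at least 2-fold among 3 libraries was found for 3348 genes (16.8%) in the Lyz2-high profile and for 2590 (13%) in the Lyz2-low profile, against 1488 (7.46%) in Yap-off and 234 (1.17%) in Yap-on organoids. In the Lyz2-high profile, the medians of the lymphocyte lists were higher in the organoid-labelled libraries than in hepatocyte 2. The median of 17 T and NK cell genes was 3.55 in hepatocyte 2, 6.67 in wild-type organoid 1 and 6.60 in wild-type organoid 3, against 2.85 to 3.18 in the Lyz2-low libraries. Cd3d, a chain of the T cell receptor complex, had 2.87, 8.51 and 8.21 in the same order, and Nkg7, a cytotoxic granule gene, had 3.99, 9.95 and 9.70. Only 2 of the 17 genes (11.8%), Ccl5 and Nkg7, were therefore apart and higher, against 4.04% of all genes. Without hepatocyte 2 the list median differed by 3.46 in place of 2.29. The immunoglobulin joining chain Jchain followed the same order, with 5.25, 9.38 and 9.94, and it and Cd79b were the 2 genes of 11 on the B cell list that were apart. The endothelial median was 6.23 in hepatocyte 2, 9.39 in wild-type organoid 1 and 8.49 in wild-type organoid 3.

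Hepatocyte 2 was in turn the highest of the 3 in the median of the cytokine and chemokine genes, though not in each member or in interferon genes. The cytokine and chemokine median was 7.88 in hepatocyte 2, 5.89 in wild-type organoid 1 and 6.03 in wild-type organoid 3, and without hepatocyte 2 the list differed from the Lyz2-low libraries by 1.09 in place of 1.75. Il1b, an inflammatory cytokine, had 8.88, 7.63 and 9.04 in the same order, and the interferon median was 5.42, 6.36 and 7.10. Saa2, an acute-phase protein, had 10.58, 3.42 and 3.59 in the same order, and Cxcl2, a chemokine, had 8.04, 3.97 and 3.95. The widest range in the Lyz2-high profile was that of Hamp, the iron hormone hepcidin, with 10.79 in hepatocyte 2, 2.9 in wild-type organoid 1 and 8.31 in wild-type organoid 3, against 11.49, 11.69 and 11.82 in the Lyz2-low libraries. Car3, a carbonic anhydrase, had 2.97, 8.94 and 10.41 in the 3 Lyz2-high libraries and BC018473 had 3.23, 8.68 and 10.17.

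Among Lyz2-low libraries, hepatocyte 1 and 3 were close to each other (r = 0.989 over 19937 genes) and differed from wild-type organoid 2 (0.953 and 0.955). The glycolysis and hypoxia response list had a median of 10.06 in hepatocyte 1 and 10.09 in hepatocyte 3, but of 7.31 in wild-type organoid 2. Set against wild-type organoid 2 alone, the Lyz2-high libraries differed in that list by -0.77, in place of -1.92. Adm, a peptide hormone induced by low oxygen, had 10.66, 10.53 and 4.60 in hepatocyte 1, hepatocyte 3 and wild-type organoid 2, and Lox, which crosslinks collagen, had 9.24, 8.99 and 3.22. Adult liver enzymes showed the same order: the periportal median was 6.58, 6.51 and 3.70, Adh1, an alcohol dehydrogenase, had 9.37, 9.22 and 2.83, and the acute-phase gene Serpina3n had 10.54, 10.67 and 3.65. Wild-type organoid 2 was the highest of the 3 in replication and mitosis genes, with a median of 6.43, against 4.76 in hepatocyte 1 and 4.99 in hepatocyte 3. Against wild-type organoid 2 alone the Lyz2-high libraries differed by 2.50 in pericentral genes (0.97 with all 3), by 4.33 in periportal genes (1.69), by -0.87 in hepatocyte transcription factors (-1.47), by -1.50 in replication genes (-0.59) and by -2.44 in cholesterol synthesis (-1.46).

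**Figure D4:**
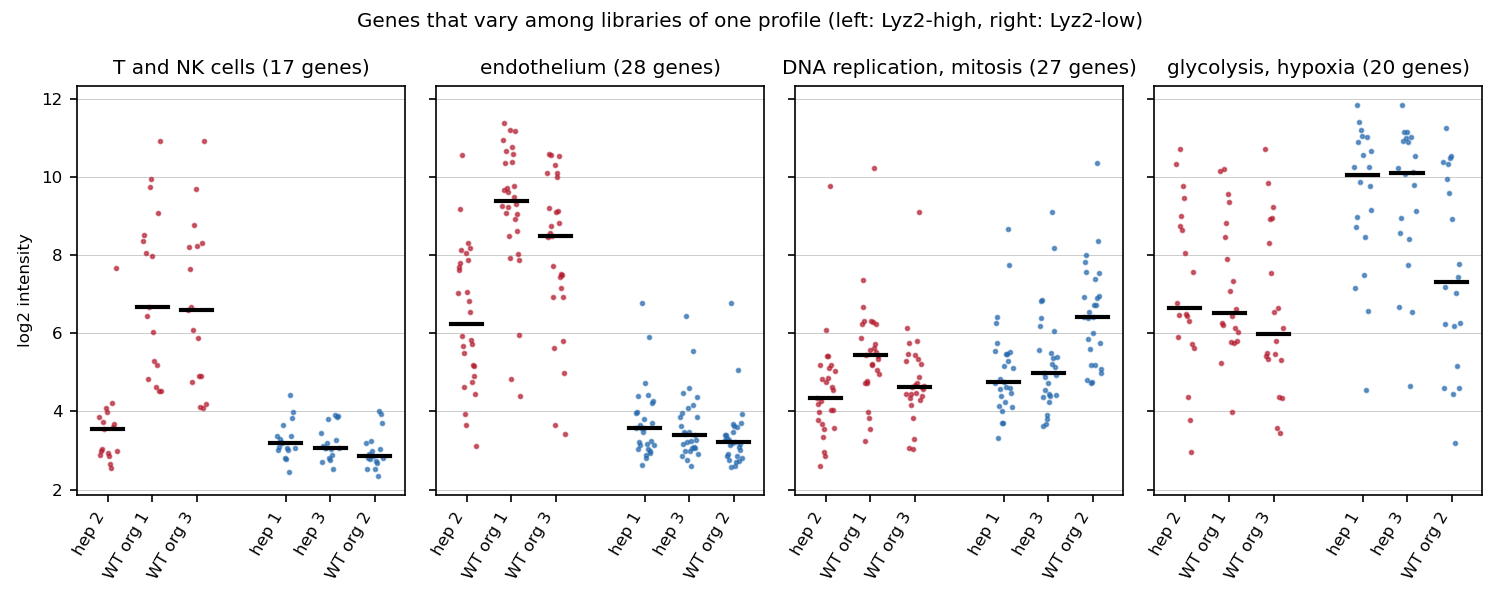
Log2 intensity of each member (points) of 4 gene lists in the 3 Lyz2-high libraries (red, left) and the 3 Lyz2-low libraries (blue, right), with a black bar at each list's median; hep stands for hepatocyte and WT org for wild-type organoid. T and NK cell medians were 6.67 and 6.60 in wild-type organoid 1 and 3 but 3.55 in hepatocyte 2, and glycolysis medians were 10.06 and 10.09 in hepatocyte 1 and 3 but 7.31 in wild-type organoid 2.

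Sex-linked genes followed neither the labels nor the profiles in full. Xist, the RNA that silences an X chromosome in female cells, had 3.00, 3.30 and 3.26 in the Lyz2-high libraries, against 8.82 in hepatocyte 1, 9.0 in hepatocyte 3 and 3.14 in wild-type organoid 2. Eif2s3y, on the Y chromosome, had 6.81, 6.19 and 7.11 in the Lyz2-high libraries, against 2.78, 2.88 and 7.05 in the Lyz2-low libraries. Within the Lyz2-low profile, label and sex-linked expression cannot be told apart. Against wild-type organoid 2 alone, which shares the low Xist of the Lyz2-high libraries, 1096 genes were apart and higher and 1774 were apart and lower. Without genes of the X and Y chromosomes, and with all Lyz2-low libraries, the counts were 782 and 805. By the definition of apart, leaving out libraries can only keep or raise such counts, and leaving out genes can only keep or lower them. Whether sex-linked expression bears on the other genes was therefore not tested by either setting.

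The comparison that the labels imply asked how wild-type organoids differ from uninduced hepatocytes. No gene passed (0%), by limma with Benjamini-Hochberg adjustment over 19937 genes, and the smallest adjusted p was 0.985; 731 genes had an unadjusted p under 0.05. Each label held libraries of both profiles. Whether the labels match their arrays was not tested, so estimates by label hold for the labels as given. Leaving out hepatocyte 2 gave 7 calls, and leaving out wild-type organoid 2 gave 43.

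Whether libraries of one label shared more than their profile was then tested with the profile as a covariate. Again no gene passed (0%) in limma at an adjusted p under 0.05, the smallest adjusted p being 0.265, and 1612 genes had an unadjusted p under 0.05, of which 792 were higher in libraries labelled organoid. The number of genes past the adjusted threshold depended on single libraries and on the spread used: it was 356 without hepatocyte 2, 209 without wild-type organoid 2 and 142 with the spread of all 12 arrays. Of the genes with the smallest p, Guca1a had 5.39, 5.15 and 4.67 in wild-type organoid 1, 3 and 2, against 7.46, 6.85 and 6.97 in hepatocyte 2, 1 and 3, a limma estimate of -2.21 ± 0.164 (SE; adjusted p = 0.265). Gimap9 was estimated at 1.86 ± 0.191 and the secreted glutathione peroxidase Gpx3 at -2.25 ± 0.211 (SE; limma adjusted p = 0.331 for both). Kif11, a motor of the mitotic spindle, was estimated at 1.23 ± 0.159 (SE; limma adjusted p = 0.354). By list, 17 of 27 replication and mitosis genes had an unadjusted p under 0.05, all with higher values in libraries labelled organoid. With lower values, 11 of 20 glycolysis and hypoxia genes and 11 of 20 immediate early and heat shock genes did so. Over all genes it was 1612 of 19937. Further lists held such genes: 8 of 29 macrophage and 6 of 14 monocyte and neutrophil genes, all lower, and 6 of 16 cholesterol synthesis genes, all higher. Among 20 cytokine and chemokine genes there were 9, of which 1 was higher. The T and NK cell list and the B cell list held none. None of these genes passed after adjustment.

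The Yap organoids, which the choice of groups did not use, gave a separate set of 6 libraries for the same genes. Yap-on organoids were compared with Yap-off organoids by limma across all genes, and 3817 (19.1%) were higher and 2395 (12%) were lower in Yap-on organoids at an adjusted p under 0.05. Of the 843 genes lower in the Lyz2-high libraries, 311 (36.9%) rose and 186 (22.1%) fell with Yap on, with a median difference of 0.30. Of the 806 genes higher in the Lyz2-high libraries, 121 (15%) rose and 185 (23%) fell, with a median difference of -0.20, against -0.08 over all genes. With the spread of all 12 arrays in place of the Yap arrays alone, 16 of the lower genes rose and 34 fell, and 7 of the higher genes rose and 35 fell. In that fit the label groups hold both profiles, so the spread is wide for genes selected as apart. Fewer calls among them were thus built in, and these counts do not check the others. The starting levels differed: 392 (48.6%) of the higher genes, 11 (1.3%) of the lower genes and 8525 (42.8%) of all genes were below the array median in all 6 Yap libraries. Without Yap-on organoid 1 the 185 became 113, and without Yap-on organoid 2 they became 123. Xist was at 3.14, 3.15 and 3.20 in Yap-on organoids, against 9.20, 8.49 and 8.98 in Yap-off organoids, so that Yap state and sex-linked expression cannot be told apart in this comparison.

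**Figure D5:**
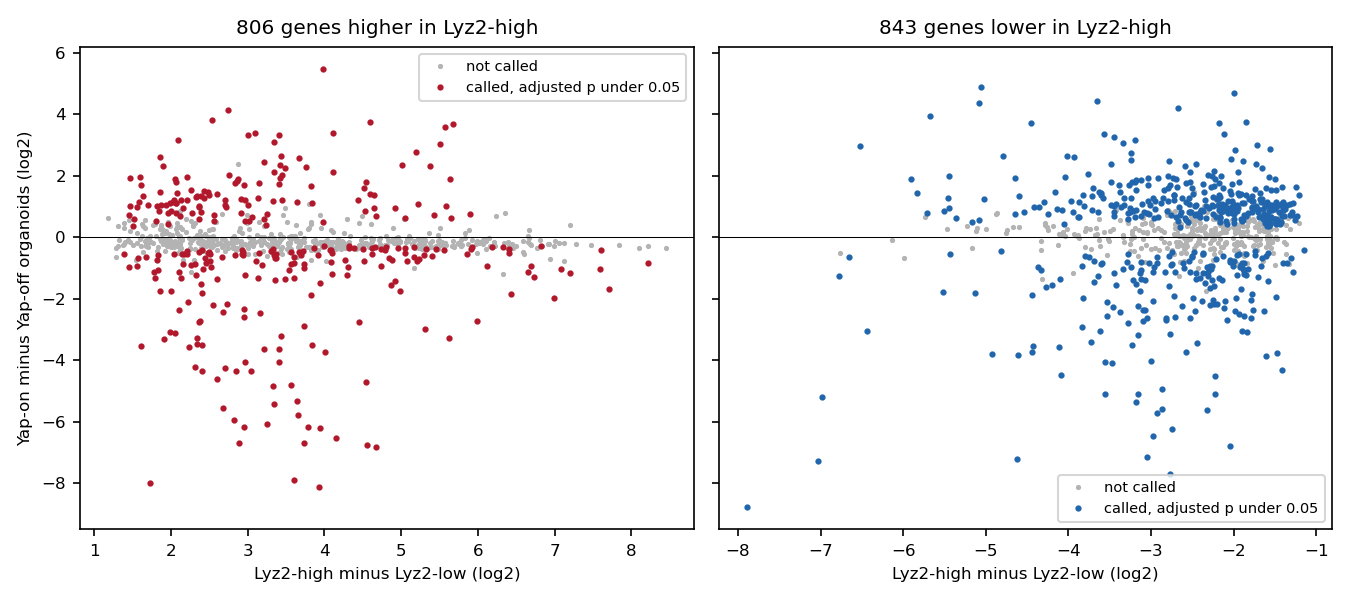
Each point is a gene that was apart between the profiles, placed by the Lyz2-high minus Lyz2-low difference (horizontal, log2) and by the Yap-on minus Yap-off difference in organoids (vertical, log2); coloured points passed limma at an adjusted p under 0.05. Among the 806 higher genes, in the left panel, 121 rose and 185 fell with Yap on, and among the 843 lower genes, in the right panel, 311 rose and 186 fell.

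Genes that marked the Lyz2-low libraries did not move as a block in the Yap organoids. Krt19 had 12.13, 12.25 and 12.01 in Yap-on organoids, against 7.56, 7.0 and 7.18 in Yap-off organoids, a difference of 4.88 ± 0.160 (SE; limma adjusted p = 2.26e-06). Ankrd1 had 7.67, 7.95 and 8.57 in Yap-on organoids, against 9.46, 9.13 and 9.39 in Yap-off organoids, a difference of -1.26 ± 0.231 (SE; limma adjusted p = 0.007). Afp had 3.58, 3.25 and 3.19 in Yap-on organoids, against 12.18, 11.99 and 12.16 in Yap-off organoids, a difference of -8.77 ± 0.132 (SE; limma adjusted p = 1.22e-07). Duct keratin thus rose while the YAP target and the fetal albumin relative fell. Of 23 biliary genes 20 rose and 2 fell, and of 24 YAP/TEAD targets 8 rose and 7 fell. Over all genes 19.1% rose and 12% fell. Ccn2 rose by 0.77 and Ccn1 fell by 0.98. Yap1 differed by 0.23 ± 0.141 (SE; limma adjusted p = 0.237).

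Macrophage genes were low in all Yap organoids. The median of the 29 markers was between 3.06 and 3.20 in Yap-on and between 3.49 and 3.70 in Yap-off organoids, against 10.16 to 10.67 in the Lyz2-high libraries. Lyz2 had 2.59, 3.04 and 3.11 in Yap-on organoids, against 5.50, 5.58 and 5.78 in Yap-off organoids (difference -2.71 ± 0.163, SE; limma adjusted p = 4.42e-05). Over 19937 genes, r with Yap-off organoids was 0.934 to 0.952 for the Lyz2-low libraries and 0.807 to 0.832 for the Lyz2-high libraries. With Yap-on organoids it was 0.901 to 0.938 for the Lyz2-low libraries and 0.769 to 0.796 for the Lyz2-high libraries.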

How the data were processed

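RNA of 12 mouse liver libraries was amplified and hybridised to Affymetrix arrays, per the labels. The deposited values are intensities on a linear scale that the authors made with RMA (background correction, quantile normalization and probe summary), per the submitters' processing notes; the version and genome build were not given in the sources used here. Here log2 was taken. Of 34760 array rows, 21640 named 1 gene, 1321 several and 11799 were not in the probe table. For 954 genes with several rows the one brightest on average was kept, which left 19937 genes. 21553 rows matched RefSeq by gene ID.

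The members and gene lists were chosen with earlier results of these data known. Libraries were split at a Lyz2 level of 9, and a gene was called apart where the libraries of one profile were at least 1 log2 unit above all those of the other. Tests used limma 3.58.1 in R 4.3.3 (lmFit and eBayes), with Benjamini-Hochberg adjustment over all genes and a threshold of 0.05. The label test left 4 residual degrees of freedom and the test with profile as covariate 3. Named genes were the 4 markers and Yap1, the 15 widest gaps each way, up to 4 members per list by difference, up to 3 genes each way by smallest p, up to 5 per profile by range, and the sex-linked genes; other list members are named to describe a list and were chosen after their values were seen. The fits were also run on simulated data with known changes. For the label test the simulated data held no difference between the profiles, unlike the real libraries. That run therefore does not show which changes the label test could find here. The number of arrays limits the precision.

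Replicate numbers were not used as pairs, since the labels do not say that they pair libraries. Alternatives covered the gap, repeated quantile normalization, centring, the row rule, a filter on the 30% of genes with the lowest mean, the other markers as splitters, left-out libraries, the spread of all 12 arrays and a replicate block.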

Additional observations from a re-analysis of the deposited data

How the results depend on the processing

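The counts of genes apart, 806 higher and 843 lower in the Lyz2-high libraries, became 2787 and 3960 with any gap above 0 and 446 and 268 with a gap of at least 2 (log2). With wild-type organoid 2 as the only Lyz2-low library, an alternative chosen after seeing the data, as was the removal of X and Y genes, 1774 genes were lower. With each library left out in turn the counts ran between 844 and 1103 and between 921 and 1226. Leaving out a library can only keep or raise these counts, by the definition of apart, so they are no measure of stability. The label test gave 10 calls with all 12 arrays, 0 with a replicate block, and 0 to 43 with a library left out. The label test within profiles gave 142 calls with all 12 arrays, 141 with a replicate block, and 0 to 356 with a library left out; the cause of these shifts was not tested. Same-numbered hepatocyte and organoid libraries lie in opposite profiles, so a correlation of their deviations says nothing about pairing. Within profiles, the replicate 1 minus 3 differences of the 2 labels had r = -0.052, and same-numbered Yap-on and Yap-off libraries deviated with r between -0.064 and 0.071. With all 12 arrays, whose label groups hold both profiles and so have a wide spread for these genes, 7 of the genes higher in Lyz2-high libraries rose and 35 fell with Yap on, and of the lower genes 16 rose and 34 fell. With a Yap library left out, the genes higher in Lyz2-high libraries held 93 to 128 that rose and 113 to 247 that fell, and the lower genes 235 to 348 and 151 to 196. Of 1314 recomputed gene differences 1239 moved by less than the spread and 75 by more; 22 changed sign, none of a gene called apart. Of 243 list medians 35 moved and 16 changed sign. The plasma protein median became 0.55 against wild-type organoid 2 alone; the other sign changes were in the mesothelium, immediate early, Wnt and gastric lists, whose medians lie within 0.07 of 0. Without wild-type organoid 3 the B cell median was 0.78 in place of 1.33, and without wild-type organoid 2 the replication median was -0.12 in place of -0.59. Centring the arrays moved the median difference of all genes from -0.01 to -0.10.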
